A study of Homo sapiens with 6 samples.

Results

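The annexins and the S100 proteins are families of calcium-binding proteins, and 10 of their genes were followed here across KO52 cells in which C/EBP or AP-1 factors had been blocked. The genes were taken from a list of symbols and matched by Ensembl identifier. They were the annexins ANXA1, ANXA2, ANXA5 and ANXA8 and the S100 genes S100A4, S100A6, S100A8, S100A9, S100A10 and S100A11. The 10 genes had a row each among the 60612 gene identifiers of every count table. Of these, 8 passed the low-count filter that left 15395 genes for testing, and S100A8 and S100A9 did not. KO52 is an established acute myeloid leukemia line whose genotype is given as CEBPA double mutant, and all 6 libraries came from it. The cells carried a lentiviral vector that responds to doxycycline and encodes a dominant negative C/EBP peptide (dnCEBP), a dominant negative FOS peptide (dnFOS) or no peptide (empty vector, EV), with 2 libraries of total RNA in each group. Such a peptide pairs with the members of its family and keeps them off DNA. Every group was therefore the same single line, and how much peptide each culture made was not measured by these data. According to the paper, the cells were given doxycycline and sorted for the marker GFP before RNA was sequenced. The sources used here do not say that replicate libraries came from separate cultures, so the p-values cover the spread between libraries, which may be technical.

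Annexins bind negatively charged membrane phospholipids when calcium is present, and S100 proteins are small EF-hand proteins that dimerize and dock on target proteins when calcium rises. Members of both families work together, as ANXA2 forms a complex with a dimer of S100A10 at the plasma membrane and S100A11 binds the N-terminal tail of ANXA1. In the myeloid lineage S100A8 and S100A9 form calprotectin, an abundant cytosolic complex of neutrophils and monocytes, and ANXA1 is a mediator that limits neutrophil recruitment.

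The libraries held 9862994 to 27663179 counts each, and the 2 dnFOS libraries were the shallowest (14583615 and 9862994). A count of 3, taken as the floor, was worth 0.111 to 0.290 CPM (counts scaled to library size), and intervals and floors cover counting error only. In no group did the pair of replicates agree within sampling noise (chi-square over degrees of freedom 7.99 for EV, 9.01 for dnCEBP and 13.98 for dnFOS). The cells had the markers of a myeloid blast, as all 7 blast markers were tested and their summed level was 776.2 to 1067 CPM over the libraries. By sum, markers of other lineages were lower, over lists of different length. Their summed levels over all libraries were 92.2 to 150.3 CPM for T cell (2 of 5 tested), 11.3 to 19.5 for B cell (2 of 4; MS4A1 at or under the floor), 0.677 to 3.0 for erythroid (2 of 7; HBA1, HBA2, HBG1 and HBG2 among those at or under the floor), 102.3 to 238.3 for megakaryocyte (2 of 5; GP1BA at or under the floor) and 67.3 to 87.6 for epithelial markers (3 of 5; CDH1 at or under the floor). The blast sum was 1067 and 999.7 CPM with EV, 928.1 and 922.9 with dnCEBP and 809.4 and 776.2 with dnFOS. It hides opposite moves in dnCEBP against EV, where 3 of the 7 markers lay above 0 and 4 below. MPO and ANPEP were called lower there (log2 fold changes -1.89 ± 0.10 and -0.37 ± 0.09, SE), beside 0.448% of all genes tested. PTPRC lay above 0 (0.30 ± 0.08) and was not called, at 401.4 and 398.0 CPM with EV and 469.8 and 512.1 with dnCEBP. All 7 blast markers had log2 fold changes below 0 in dnFOS against EV, but CD33 (-0.01 ± 0.10) and KIT (-0.02 ± 0.16, SE) were close to 0 and their groups overlapped. Of the 7, 3 were called lower (ANPEP, PTPRC and MPO), beside 7.76% of all genes tested. The T cell sum was 124.1 and 116.9 CPM with EV, 146.7 and 150.3 with dnCEBP and 106.1 and 92.2 with dnFOS. Nearly all of it was CD3D, at 122.1 and 114.8 CPM with EV, while CD3E and CD3G were at most 0.338 CPM in any library. The megakaryocyte sum was 194.5 and 183.1 CPM with EV, 238.3 and 201.3 with dnCEBP and 113.0 and 102.3 with dnFOS. Nearly all of it was ITGA2B, at 192.2 and 181.6 CPM with EV, while PF4 was at most 0.290 CPM. CD3D and ITGA2B were each above the blast marker CD33 with EV (63.8 and 58.9 CPM), so the sums depend on which genes are listed. The part of these markers in the results was not tested. In such bulk RNA, fewer cells of a type and less RNA per cell cannot be told apart.

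The level of each gene was examined first. Per kilobase of exon (the union of annotated exons), S100A4 was the most abundant of the 10 genes in every library, at 278.4 ± 4.67 CPM per kilobase with EV (SD, n = 2). This gene encodes a cytoskeleton-binding S100 protein known from cell motility and metastasis. S100A6, also called calcyclin, followed at 69.5 ± 6.04, then ANXA1 at 46.2 ± 3.0, S100A11 at 40.7 ± 0.0824, S100A10 at 23.8 ± 1.28, ANXA5 at 13.6 ± 0.101 and ANXA2 at 3.11 ± 0.103. S100A8, ANXA8 and S100A9 lay far below, at 0.374 ± 0.115, 0.261 ± 0.00267 and 0.188 ± 0.0420 CPM per kilobase. No neighbors in this order overlapped in EV. With the length of the principal transcript in place of the union, a choice made after seeing the data, S100A6 (100.2) and ANXA1 (95.4) overlapped, as did S100A8 (0.718) and ANXA8 (0.659). The order was the same in dnCEBP down to ANXA2. In dnFOS S100A6 dropped to the fourth place at 30.6 ± 2.27 CPM per kilobase, below S100A11 (34.1 ± 1.59) and ANXA1 (31.4 ± 0.989), and overlapped ANXA1. With the principal transcript length S100A6 (44.1) was instead below ANXA1 (64.7) and above S100A11 (39.1) in dnFOS, with no overlap, so its place there depended on the length used. ANXA8 was the lowest of the 10 genes in dnFOS (0.0358 ± 0.0321 CPM per kilobase), but ANXA8 and S100A9 were at or under the floor there. Before division by length, ANXA8 (mean 0.178 CPM) was above S100A9 (0.113) in dnFOS.

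**Figure D1:**
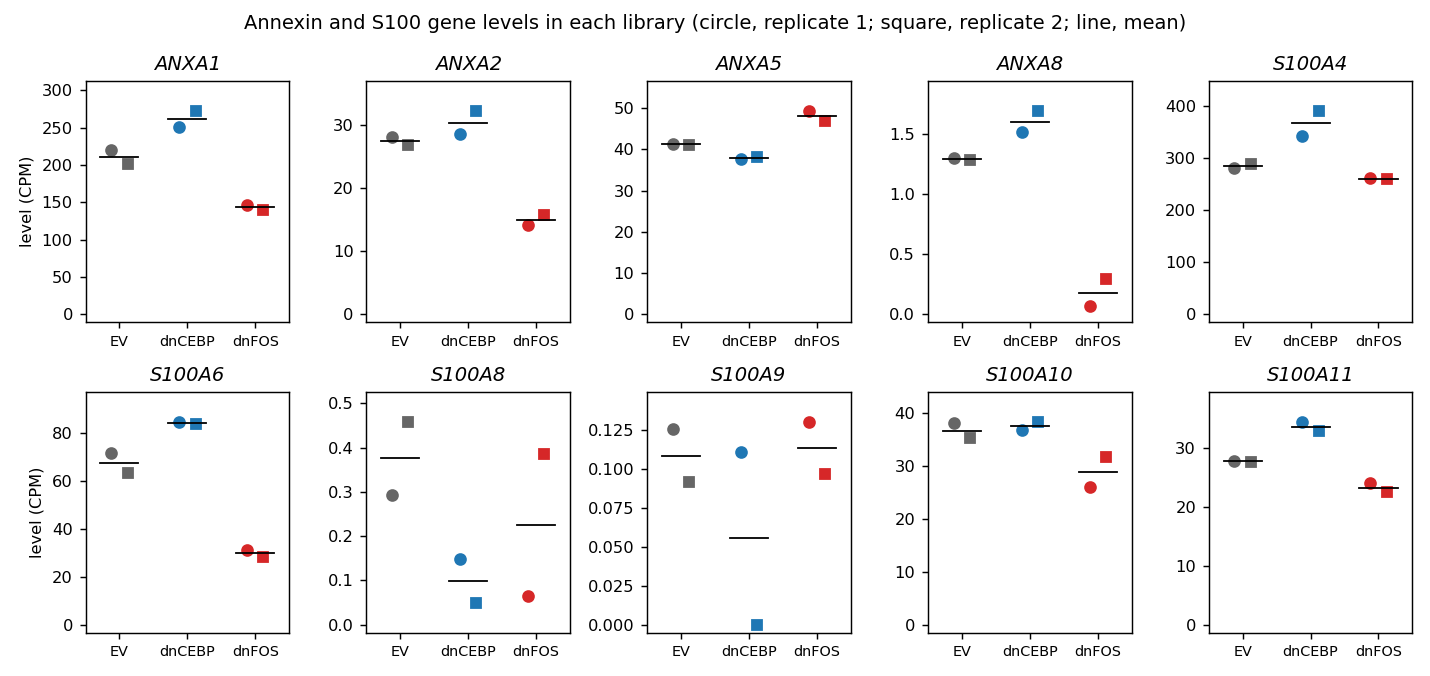
Level of each of the 10 genes in every library, in CPM on scaled library sizes, for EV, dnCEBP and dnFOS (circle, replicate 1; square, replicate 2; black line, mean of the 2 libraries; each panel has its own linear axis). S100A6 sits at 28.1 and 31.3 CPM with dnFOS against 63.3 and 71.6 with EV, and ANXA5 is the only one of the 8 tested genes whose dnFOS libraries lie highest.

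The S100 genes share a location that the choice of genes did not use. All 6 lie on the long arm of chromosome 1 between positions 151982915 and 153550136 (GRCh38), with S100A10 and S100A11 towards the lower end and the other 4 at the upper end, whereas the annexins sit on chromosomes 4 (ANXA5), 9 (ANXA1), 10 (ANXA8) and 15 (ANXA2). Their coding sequences differ enough to be counted apart, with an identity between 47.5% and 60.2% among the S100 genes and between 53.1% and 59.4% among ANXA1, ANXA2, ANXA5 and ANXA8. Of all stretches of 75 bases, the length of a read, in the annotated transcripts of ANXA2, 4.10% also occur in a copy, all of them in the pseudogene ANXA2P2. None did so for the other members except ANXA8. Annotated genes that overlap a member had few counts, which do not measure the reads that reach into both genes. S100A3, on the strand of S100A4, had 0 counts in every library, and AL450992.1, antisense to S100A11, had 1 to 9. No 75-base stretch of S100A11 occurs in AL450992.1 on either strand. The sources used here do not give the strand setting of the counting, so how reads reaching into both genes were counted is not known.

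ANXA8 differs from the rest because the genome holds a near-identical copy, ANXA8L1. Of its 75-base stretches 62.8% occur in another gene, and 42.5% in ANXA8L1. The coding sequences of the pair were 99.5% identical, with 5 differences in 981 bases (T16G, C276T, A528G, G530C and T939C, with the base of ANXA8 first, the coding position counted from the A of the start codon and then the base of ANXA8L1). The following coding stretch, from base 499 to base 558 of either gene, is shown because it holds 2 of the 5 differences, A528G and G530C, which are in capitals, and a read that misses these bases cannot be assigned to either copy from this stretch. It lies in 2 exons of each gene, at chr10:47474945-47474998 and chr10:47474393-47474398 on the minus strand for ANXA8 and at chr10:46384780-46384833 and chr10:46385380-46385385 on the plus strand for ANXA8L1 (GRCh38, GENCODE 29).
ANXA8: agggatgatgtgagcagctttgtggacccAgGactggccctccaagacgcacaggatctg
ANXA8L1: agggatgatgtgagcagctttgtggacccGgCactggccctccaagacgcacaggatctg
The values of ANXA8 are uncertain for this reason. ANXA8L1 itself had 2 and 7 counts with EV, 2 and 0 with dnCEBP and 0 and 0 with dnFOS.

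The dnFOS and EV libraries were compared to ask which of the genes respond when AP-1 factors are kept off DNA. S100A6 fell 2.26-fold and ANXA2 1.85-fold in dnFOS, and ANXA1 fell 1.47-fold. ANXA8 was almost lost, and S100A10 fell by a smaller step of 1.28-fold. S100A11, S100A4 and ANXA5 did not pass the test. Of the 8 tested genes, 5 were lower and 0 higher at an adjusted p under 0.05 in edgeR's quasi-likelihood test with Benjamini-Hochberg adjustment, where 15% of all tested genes were called, 7.76% lower and 7.24% higher. The median log2 fold change of the 8 genes was -0.45, beside 0 over all tested genes, and 7 lay below 0. The median does not depend on the exact value of ANXA8, which is the lowest. In all 8 genes the 2 dnFOS libraries lay on 1 side of both EV libraries, as did 56.7% of all tested genes. With library totals in place of scaled library sizes, the median of all genes moved to 0.10 and the share of all calls that were higher from 48.3% to 73.8%, and the lower calls of S100A6, ANXA2, ANXA1 and ANXA8 were also made there.

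Among the annexins, ANXA2, the partner of S100A10 at the membrane and a docking protein for plasminogen, had the lowest adjusted p of the 4 annexins. ANXA2 (ENSG00000182718; GRCh38 chromosome 15, 60347134 to 60402883, minus strand) had 670 and 586 counts with EV, 772 and 666 with dnCEBP and 217 and 162 with dnFOS. These were 28.1 and 26.8 CPM with EV, 28.6 and 32.1 with dnCEBP and 14.1 and 15.7 with dnFOS. The dnFOS libraries held the lowest values and overlapped neither other group. The log2 fold change of ANXA2 with dnFOS against EV was -0.89 ± 0.13 (SE; adjusted p of edgeR = 4.05e-05), and it ran from -0.96 to -0.81 when 1 library was left out.

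ANXA1, whose protein acts through formyl peptide receptors to limit inflammation, also fell. ANXA1 (ENSG00000135046; chromosome 9, 73151757 to 73170393, plus strand) had 5254 and 4392 counts with EV, 6788 and 5633 with dnCEBP and 2245 and 1446 with dnFOS. Its level was 220.4 and 201.1 CPM with EV, 251.2 and 271.9 with dnCEBP and 146.2 and 139.8 with dnFOS, so that the 3 groups stood apart, with dnCEBP highest. The log2 fold change in dnFOS against EV was -0.56 ± 0.09 (SE; adjusted p of edgeR = 4.83e-05), and -0.64 to -0.49 with 1 library left out. ANXA5, which binds phosphatidylserine and is used as a probe for dying cells, had the opposite order. ANXA5 (ENSG00000164111; chromosome 4, 121667955 to 121697113, minus strand) was at 41.4 and 41.0 CPM with EV, 37.7 and 38.2 with dnCEBP and 49.2 and 46.8 with dnFOS. Its log2 fold change of 0.22 ± 0.11 with dnFOS against EV did not pass the test (SE; adjusted p of edgeR = 0.166), although library totals gave 0.32 with an adjusted p of 0.0343.

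ANXA8, an annexin known for high levels in acute promyelocytic leukemia, nearly disappeared from the dnFOS libraries. ANXA8 (ENSG00000265190; chromosome 10, 47460162 to 47484158, minus strand) had 31 and 28 counts with EV, 41 and 35 with dnCEBP and 1 and 3 with dnFOS, or 1.30 and 1.28, 1.52 and 1.69, and 0.0651 and 0.290 CPM. Both dnFOS libraries were at or under the floor and well below the other 4. The summed counts, 4 against 59, gave a ratio of dnFOS to EV of 0.120 after scaling (exact 95% interval 0.0318 to 0.325), and edgeR called the gene with an adjusted p of 0.00404. This call was lost without dnFOS replicate 1 (adjusted p = 0.0776). DESeq2 set no adjusted p for ANXA8, and the sharing of reads with ANXA8L1 described above applies.

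Among the S100 genes, S100A6 changed most. S100A6, a cell-cycle-regulated S100 protein that binds the ubiquitin ligase component CACYBP (ENSG00000197956; chromosome 1, 153534599 to 153536244, minus strand), had 1707 and 1383 counts with EV, 2279 and 1728 with dnCEBP and 480 and 291 with dnFOS. This was 71.6 and 63.3 CPM with EV, 84.3 and 83.4 with dnCEBP and 31.3 and 28.1 with dnFOS, again with 3 groups that did not overlap. The log2 fold change was -1.18 ± 0.10 (SE; adjusted p of edgeR = 1.64e-09) and stayed between -1.28 and -1.09 with any library left out. It was -0.95 after correction for GC content and gene length, where the gene was also called.

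S100A10, the light chain of the ANXA2 complex, had a smaller fold change than ANXA2. S100A10 (ENSG00000197747; chromosome 1, 151982915 to 151994390, minus strand) had 38.1 and 35.3 CPM with EV, 36.7 and 38.3 with dnCEBP and 26.1 and 31.7 with dnFOS. Both dnFOS libraries were below all others, and EV and dnCEBP overlapped. The log2 fold change in dnFOS against EV was -0.35 ± 0.12 (SE; adjusted p of edgeR = 0.0464). This call was fragile. It was lost with DESeq2 (adjusted p = 0.0638), with library totals (-0.25, adjusted p = 0.154), after correction for GC content and gene length (-0.20, adjusted p = 0.264) and without EV replicate 1 (-0.29), EV replicate 2 (-0.42) or dnFOS replicate 1 (-0.21). The fold changes of ANXA2 and S100A10 were not tested against each other.

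S100A11, a partner of ANXA1, and S100A4 were lower in dnFOS than in EV by values that did not pass the test. S100A11 (ENSG00000163191; chromosome 1, 152032506 to 152047907, minus strand) had 27.7 CPM in both EV libraries, 34.3 and 32.8 with dnCEBP and 24.0 and 22.4 with dnFOS, and its log2 fold change was -0.25 ± 0.12 (SE; adjusted p of edgeR = 0.175). S100A4 (ENSG00000196154; chromosome 1, 153543613 to 153550136, minus strand) had 281.9 and 288.7 CPM with EV, 343.5 and 389.9 with dnCEBP and 260.9 and 259.3 with dnFOS, with a log2 fold change of -0.13 ± 0.09 (SE; adjusted p of edgeR = 0.327). The groups of both genes stood apart in the same order, dnFOS lowest and dnCEBP highest. The S100A4 value turned to 0.004 after correction for GC content and gene length.

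**Figure D2:**
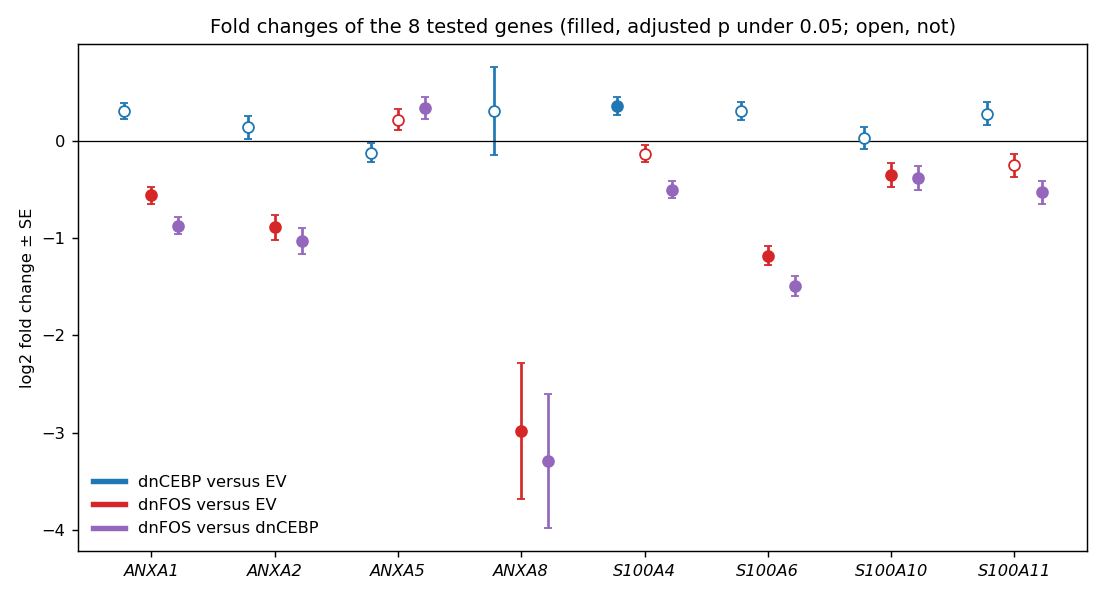
Log2 fold change with its SE for the 8 tested genes in the 3 comparisons (filled, adjusted p under 0.05 in edgeR; open, not), relative to scaled library sizes. S100A6, ANXA2 and ANXA1 lie below 0 with dnFOS against EV by -1.18, -0.89 and -0.56, whereas the dnCEBP values of most genes lie a little above 0. The ANXA8 values rest on 1 and 3 counts with dnFOS.

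The promoters of these genes were read because the peptides block factors with known DNA motifs. RefSeq promoter windows on GRCh38.p14 were found for 9 of the 10 genes (not for ANXA8), and the 250 bases before each start were searched on both strands. The motifs were TGANTCA (AP-1), TGACGTCA (the cyclic AMP response element, CRE), TGANGCAA (a composite of AP-1 and C/EBP letters) and TTNNGNAA (C/EBP). The first 3 motifs begin with the same letters, TGA, and no match in these genes lay within another. Among all 35116 promoters 6.57%, 1.65%, 2.77% and 33.2% held a match. ANXA2 alone of the 9 held the AP-1 motif, at position -127 from its start, and S100A9 held the composite at -86. The C/EBP motif occurred in ANXA1 (-143), S100A6 (-120), S100A11 (-248 and -33), S100A9 (-173) and S100A8. The windows of S100A4, S100A10 and ANXA5 held none of the 4 motifs, which says only that these letters are not in them. A match is a description of the sequence and no measure of binding. The sequences below are shown for the genes that moved furthest and for S100A4, which rose in dnCEBP, with matches in capitals. They cover the longest part of the window that holds no annotated exon. The S100A6 window lies within annotated exons, so only 30 bases about its match are given. The stretches of ANXA2 and S100A4 lie within the annotated spans of these genes. ANXA2 is chr15:60398044-60398236 (minus strand), ANXA1 chr9:73151615-73151756 (plus strand), S100A6 chr1:153536093-153536122 (minus strand) and S100A4 chr1:153545886-153546056 (minus strand).
ANXA2: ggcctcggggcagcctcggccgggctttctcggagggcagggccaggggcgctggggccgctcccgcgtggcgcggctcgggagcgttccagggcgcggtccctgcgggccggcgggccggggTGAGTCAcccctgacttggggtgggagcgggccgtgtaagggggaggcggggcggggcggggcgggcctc
ANXA1: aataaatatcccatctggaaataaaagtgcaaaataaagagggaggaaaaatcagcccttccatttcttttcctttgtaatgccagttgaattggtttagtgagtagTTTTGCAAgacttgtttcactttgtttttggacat
S100A6: gcgaatgtgcgTTGTGTAAgccacggcgca
S100A4: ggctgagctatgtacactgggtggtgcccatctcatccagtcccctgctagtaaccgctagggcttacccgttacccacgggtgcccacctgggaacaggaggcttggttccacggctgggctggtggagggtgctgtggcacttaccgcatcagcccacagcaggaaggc

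The dnCEBP and EV libraries were compared in the same way for C/EBP factors. The fold changes lay nearer to 0 and were mostly positive. S100A4 rose 1.29-fold in dnCEBP, and ANXA1, S100A6, ANXA8 and S100A11 had positive values that did not pass the test. Of the 8 tested genes 1 was called higher and 0 lower, where edgeR called 1.07% of all tested genes, 0.624% higher and 0.448% lower. The median log2 fold change of the 8 was 0.29, beside 0 over all tested genes, and 7 of the 8 lay above 0. The groups did not overlap in 7 of the 8 genes, as in 42.8% of all tested genes.

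S100A4 had 6720 and 6306 counts with EV and 9282 and 8078 with dnCEBP. Its log2 fold change was 0.36 ± 0.09 (SE; adjusted p of edgeR = 0.0255), with both dnCEBP libraries above both EV libraries. The adjusted p lay between 0.00507 and 0.0442 over the settings that kept all libraries without a replicate block. The call was lost without EV replicate 1 (0.34, adjusted p = 0.274), without EV replicate 2 (0.37, adjusted p = 0.181) and without dnCEBP replicate 2 (0.27, adjusted p = 0.599). ANXA1 had a log2 fold change of 0.31 ± 0.08 (SE; adjusted p of edgeR = 0.071), just outside the threshold. It was called with DESeq2 (adjusted p = 0.0472), with limma-voom (adjusted p = 0.0381), without the low-count filter (adjusted p = 0.0358) and in a fit of the 2 groups alone (adjusted p = 0.0276). S100A6 had 0.31 ± 0.09 (SE; adjusted p of edgeR = 0.111) and was called after correction for GC content and gene length (0.39, adjusted p = 0.00626) and in the fit of the 2 groups (adjusted p = 0.0494). Without dnFOS replicate 1 or dnFOS replicate 2, libraries outside this comparison that add to the estimate of the spread, ANXA1 (adjusted p = 0.0217 and 0.0170) and S100A6 (0.0378 and 0.0454) were both called by edgeR.

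The remaining genes gave no call in dnCEBP. S100A11 stood at 0.28 ± 0.12 (SE; adjusted p of edgeR = 0.321), ANXA2 at 0.14 ± 0.12 (adjusted p = 0.705) and ANXA5 at -0.12 ± 0.10 (adjusted p = 0.712). ANXA8, with 76 counts against 59, had a ratio of 1.23 (exact 95% interval 0.866 to 1.76), so that a change of this size was not detectable at this depth. S100A10, at 0.03 ± 0.11 (SE; adjusted p of edgeR = 0.947), was the tested member nearest to 0.

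The dnFOS and dnCEBP libraries were compared to ask where the effects of the peptides differ, and these libraries also enter the comparisons with EV. All 8 tested genes differed between the peptides. S100A6 was 2.81-fold lower in dnFOS than in dnCEBP, ANXA2 2.04-fold, ANXA1 1.83-fold, S100A11 1.44-fold, S100A4 1.41-fold and S100A10 1.30-fold, and ANXA5 was 1.27-fold higher. Thus 7 genes were lower and 1 higher, where edgeR called 14.7% of all tested genes, 7.84% lower and 6.83% higher. The median log2 fold change was -0.70, beside 0.02 over all tested genes. The groups stood apart in 8 of 8 genes, as in 54.5% of all tested genes. With library totals the median of all genes moved to 0.14, the share of all calls that were higher went from 46.6% to 74.6%, and 7 of the 8 genes were called.

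The differences between the peptides ran in steps along the list. S100A6 had a log2 fold change of -1.49 ± 0.10 (SE; adjusted p of edgeR = 9.07e-12), ANXA2 -1.03 ± 0.13 (adjusted p = 2.20e-06) and ANXA1 -0.87 ± 0.09 (adjusted p = 1.73e-08). S100A11, with -0.53 ± 0.12 (SE; adjusted p of edgeR = 0.0029), and S100A4, with -0.50 ± 0.09 (adjusted p = 0.000143), had passed the test in at most 1 of the comparisons with EV, and their dnCEBP and dnFOS levels lay on opposite sides of EV. For ANXA8 the ratio of dnFOS to dnCEBP was 0.0978 (4 against 76 counts, exact 95% interval 0.0260 to 0.261; adjusted p of edgeR = 0.00119), and DESeq2 set no adjusted p. ANXA5 was higher by 0.34 ± 0.11 on the log2 scale (SE; adjusted p of edgeR = 0.0273), a call lost without dnCEBP replicate 1 (0.33), dnCEBP replicate 2 (0.35) or dnFOS replicate 1 (0.30). S100A10 was lower by a log2 fold change of -0.38 ± 0.12 (SE; adjusted p of edgeR = 0.0287). Its call was lost with library totals (-0.26), after correction for GC content and gene length (-0.27), and without dnCEBP replicate 1 (-0.41), dnCEBP replicate 2 (-0.35) or dnFOS replicate 1 (-0.24).

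**Figure D3:**
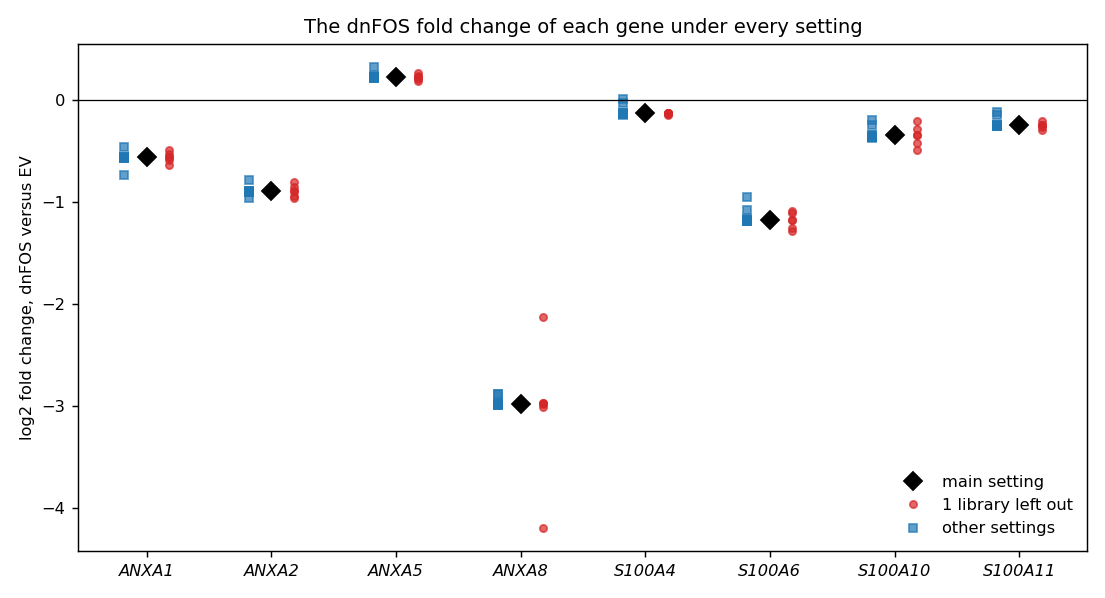
Log2 fold change of each of the 8 tested genes in dnFOS against EV under every setting (black diamond, value as reported; red circles, 1 library left out; blue squares, other tools, filters, scalings and a replicate block; DESeq2 is not drawn for ANXA8). S100A6, ANXA2 and ANXA1 stay below 0 throughout, ANXA8 ranges from -4.19 to -2.13 with 1 library left out, and S100A4 touches 0.

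The calprotectin genes were close to absent in all 3 groups. S100A8 (ENSG00000143546; chromosome 1, 153390032 to 153391188, minus strand) had 7 and 10 counts with EV, 4 and 1 with dnCEBP and 1 and 4 with dnFOS. Over summed counts the ratio to EV was 0.281 with dnCEBP (5 against 17 counts, exact 95% interval 0.0812 to 0.795) and 0.523 with dnFOS (5 against 17, 0.151 to 1.48), and these intervals hold counting error alone, not the spread between libraries. S100A9 (ENSG00000163220; chromosome 1, 153357854 to 153361027, plus strand) had 3 and 2 counts with EV, 3 and 0 with dnCEBP and 2 and 1 with dnFOS, all at or under the floor, so no difference in it was detectable at this depth. S100A12, their neighbor and a neutrophil protein of the same kind, had 0 counts in every library. The summed level of the neutrophil granule markers (5 of 9 tested; MMP8 and CEACAM8 at or under the floor) lay at 9.78 and 9.89 CPM with EV, 4.29 and 4.49 with dnCEBP and 3.13 and 3.29 with dnFOS. That of the monocyte markers (5 of 8 tested; CD163 among those at or under the floor) lay at 84.6 and 81.1 CPM with EV, 68.6 and 77.4 with dnCEBP and 55.4 and 63.8 with dnFOS. Both sums were lowest in dnFOS, where ANXA1, ANXA2 and S100A6 were lowest too, and their part in these results was not tested.

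The rest of both families was then set beside the 10 genes. Of 24 further annexin and S100 genes 15 had a count and 10 were tested. In dnCEBP 1 of the 10 was called (1.07% of all genes tested), ANXA9, an annexin that lacks the usual calcium-binding sites, which rose by 0.73 ± 0.16 (log2, SE; adjusted p of edgeR = 0.0196) from 9.15 and 10.7 CPM with EV to 14.6 and 18.3. This call was lost without EV replicate 1 (0.62), EV replicate 2 (0.84) or dnCEBP replicate 2 (0.56). In dnFOS 1 of the 10 was called against EV (15% of all genes tested), ANXA11, an annexin of RNA granules and vesicles, which fell by 0.32 on the log2 scale (SE 0.09, adjusted p of edgeR = 0.0128) from 170.0 and 162.5 CPM to 142.1 and 124.4. Its call was lost with library totals (-0.22), without EV replicate 1 (-0.28) and without dnFOS replicate 2 (-0.23). Between the peptides, 3 of the 10 were lower in dnFOS (7.84% of all genes tested): ANXA9 with -0.90 ± 0.18, ANXA6 with -0.37 ± 0.09 and ANXA11 with -0.28 ± 0.09 (log2, SE; adjusted p of edgeR = 0.000629, 0.00376 and 0.0257). The call of ANXA6 was lost without dnFOS replicate 2 (-0.26), and that of ANXA11 with library totals (-0.16) or without dnCEBP replicate 1 (-0.25), dnCEBP replicate 2 (-0.31) or dnFOS replicate 2 (-0.19). The medians of the 10 were -0.02, -0.20 and -0.23 with dnCEBP against EV, dnFOS against EV and dnFOS against dnCEBP. S100P, an S100 gene on chromosome 4, had 1.22 and 1.37 CPM with EV, 0.444 and 0.965 with dnCEBP and 0.326 and 1.16 with dnFOS and was not called. Counting members and non-members together, 4 of 10 tested annexins and 2 of 8 tested S100 genes were lower in dnFOS than in EV (7.76% of all genes tested), and 1 of each family was higher in dnCEBP (0.624%), counts that include the 10 genes chosen with earlier results known.

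The receptors and partners of these proteins formed a list of 17 genes, of which 14 were tested. In dnFOS 6 were lower than in EV and 0 higher (7.76% and 7.24% of all genes tested), with a median log2 fold change of -0.24 beside 0 over all genes tested. The lower genes were CD36, a scavenger receptor that takes up the complex of calprotectin with arachidonic acid, with -1.98 ± 0.34, AHNAK, a giant scaffold held at the membrane by the complex of ANXA2 and S100A10, with -0.80 ± 0.09, and PLAUR and PLAU, the urokinase receptor and urokinase, with -0.60 ± 0.15 and -0.55 ± 0.11. BSG, a receptor for S100A9, and MYH9, the myosin heavy chain that S100A4 binds, followed with -0.40 ± 0.11 and -0.36 ± 0.10 (log2, SE). The adjusted p-values of edgeR were 0.000173 for CD36, 1.46e-07 for AHNAK, 0.00685 for PLAUR, 0.00061 for PLAU, 0.00987 for BSG and 0.0113 for MYH9. AHNAK was at 273.0 and 299.9 CPM with EV, 248.5 and 238.3 with dnCEBP and 169.8 and 159.4 with dnFOS. BSG and MYH9 were not called with library totals (-0.31 and -0.26), after correction for GC content and gene length (-0.17 and -0.18) or without EV replicate 1 (-0.31 and -0.23) or dnFOS replicate 2 (-0.31 and -0.34). PLAUR was not called without EV replicate 1 (-0.46) or dnFOS replicate 2 (-0.52).

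CD36 was the 1 partner gene called higher in dnCEBP, the other direction from its call in dnFOS. It had 3.19 and 3.85 CPM with EV, 9.40 and 8.16 with dnCEBP and 1.11 and 0.580 with dnFOS, and it rose by 1.32 ± 0.23 with dnCEBP (log2, SE; adjusted p of edgeR = 0.00162). DYSF, the membrane-repair protein dysferlin that associates with ANXA1 and ANXA2, fell by 0.46 on the log2 scale (SE 0.11, adjusted p of edgeR = 0.0218) from 51.2 and 55.0 CPM to 41.6 and 35.2, a call lost without EV replicate 1 (-0.52), EV replicate 2 (-0.42) or dnCEBP replicate 2 (-0.35). No other of the 14 was called in dnCEBP, and the median was -0.12. The calls were thus 1 higher and 1 lower, beside 0.624% and 0.448% of all genes tested. Between the peptides, CD36, AHNAK, PLAUR and CACYBP were lower in dnFOS (log2 fold changes -3.30, -0.56, -0.56 and -0.36), and TLR4, a receptor for calprotectin, and DYSF were higher (0.58 and 0.35), with a median of -0.25 over the 14. Among all genes tested 7.84% were called lower and 6.83% higher. Of these calls, TLR4 was lost without dnCEBP replicate 1 (0.48), CACYBP without dnCEBP replicate 2 (-0.27), PLAUR without dnCEBP replicate 2 (-0.50) or dnFOS replicate 2 (-0.48), and DYSF with DESeq2 (0.34) and without dnCEBP replicate 2 (0.24) or dnFOS replicate 1 (0.29). Of the formyl peptide receptors through which ANXA1 acts, FPR1 and FPR2 did not pass the low-count filter, and FPR3 was tested and not called, with a log2 fold change in dnCEBP of 1.51 ± 0.66 (SE; adjusted p of edgeR = 0.353) at 0.294 and 0.320 CPM with EV and 1.07 and 0.676 with dnCEBP.

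**Figure D4:**
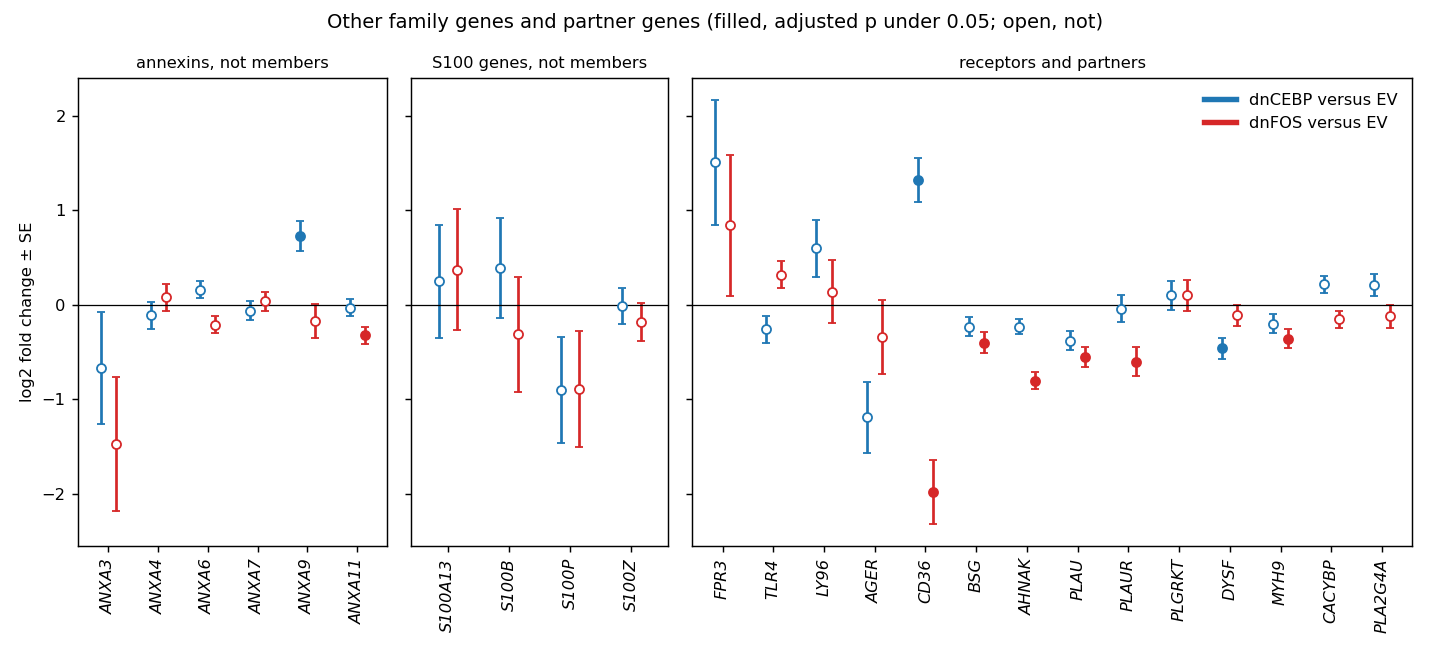
Log2 fold change with its SE against EV for the tested annexins and S100 genes outside the list of 10 and for their receptors and partners (blue, dnCEBP; red, dnFOS; filled, adjusted p under 0.05 in edgeR; open, not). CD36 lies at 1.32 with dnCEBP and -1.98 with dnFOS, and AHNAK, PLAUR and PLAU lie below 0 with dnFOS.

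The genes with the most similar profiles were listed for each member called against EV. Likeness was the root mean square difference of log2 CPM over the 6 libraries, each profile centered on its own mean, among 12806 genes with a mean of at least 1 CPM. The nearest to S100A6 were RGS2 (0.0701) and HDC (0.0905), and to ANXA2 they were CDKN2D (0.0736) and FLOT1 (0.0793). FAM162A (0.0411) and ARG2 (0.0521) were nearest to ANXA1, DYNLRB1 (0.0382) and CCSER2 (0.0437) to S100A4, and BNIP3 (0.0185) and PRELID2 (0.0190) to S100A10. CXCL8 (0.328) and VEPH1 (0.331) were nearest to ANXA8, at a far larger distance. None of these members had another member as its nearest gene. The genes nearest to S100A11 and ANXA5, which were not called against EV, were not listed. The closest pair of members found was S100A4 and S100A11 (0.0924), in which S100A11 had rank 103 among the genes near S100A4, and ANXA1 had rank 57 among those near ANXA2 (0.147).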

How the data were processed

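Total RNA depleted of ribosomal RNA was sequenced in pairs of 75-base reads. The authors deposited whole-number counts for each gene and library, without normalization. The submitters' processing notes name Trimmomatic, HISAT2, featureCounts, Subread and hg38. Versions, strand setting and how reads with several matching genes were handled are not given in the sources used here. Groups and replicate numbers came from sample titles. Gene identifiers were matched to GENCODE 29 (58394 of 60612 matched, and 60588 had a symbol from this annotation or a table of gene names).

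The analysis used edgeR 4.0.16 under R 4.3.3. filterByExpr (minimum count 10) kept 15395 of 27870 genes with a count. TMM factors ran from 0.956 to 1.05. All 6 libraries entered 1 robust quasi-likelihood model with the group as its term (3 residual degrees of freedom, common biological coefficient of variation 0.0961), each contrast was tested two-sided, and p-values were adjusted over all tested genes by the Benjamini-Hochberg method. TMM-scaled library sizes underlie all CPM, and a prior count of 2 was added for log2 CPM. Ratios of few counts have exact 95% intervals (Clopper-Pearson on the split of summed counts). On simulated counts with 200 of 15395 genes changed in dnFOS, 150 were called with 4 unchanged genes (70% of 2-fold and 80% of 4-fold changes).

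The alternatives were no filter, only genes averaging 1 CPM or more, DESeq2 size factors within edgeR, library totals, the 2 compared groups alone, DESeq2 1.42.0, limma-voom (limma 3.58.1), a replicate block, a smooth trend on GC content and length removed (mgcv 1.9.3; 98.9% of tested genes had both), and each of the 6 libraries left out. Ranges of adjusted p leave out the block and fits without a library. Fits without 1 library assume that the lone sample of a group varies like the other groups.

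Genes named were the 10 members, every gene past the threshold in 4 lists (annexin family, S100 family, receptors and partners, other calcium-binding genes), ANXA8L1, S100A12, S100P, and the 2 genes with the nearest profile of each member called against EV. AL450992.1, S100A3, ANXA2P2 FPR1, FPR2 and FPR3 were named outside this rule, after their values were seen. Markers came from 8 lists (myeloid blast, monocyte, neutrophil granule, T cell, B cell, erythroid, megakaryocyte and epithelial), of which some single markers are not reported here. The members, lists and tests were chosen with earlier results of these data known. Shared 75-base stretches and coding identity were computed from GENCODE 29 transcripts, and promoters came from RefSeq (GRCh38.p14).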

Additional observations from a re-analysis of the deposited data

How the results depend on the processing

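Depth and 2 libraries per group limit these results, as the dnFOS libraries were the shallowest and S100A8, S100A9 and ANXA8 rest on few counts. Members called in dnCEBP against EV numbered 1 as reported, 2 without the low-count filter, after correction for GC content and gene length, with limma-voom and with DESeq2, and 3 in the fit of the 2 groups alone. The genes called there numbered 165 as reported, 255 without the filter, 269 after that correction and 297 in the fit of the 2 groups. In dnFOS against EV DESeq2 called 3 members in place of 5, with no adjusted p for ANXA8. With 1 library left out, members called ran from 0 to 3 with dnCEBP against EV, from 3 to 5 with dnFOS against EV and from 6 to 8 between the peptides, and genes called from 33 to 314, from 972 to 2426 and from 1182 to 2262. The lowest counts came without dnCEBP replicate 2 (33 genes in dnCEBP), and without dnFOS replicate 2 (972 and 1182). Counts also fell by over 1.5 times in dnCEBP without EV replicate 1 (81) or EV replicate 2 (53), in dnFOS without EV replicate 1 (1059), and between the peptides without dnCEBP replicate 1 (1349), and rose in dnCEBP without dnCEBP replicate 1 (257), dnFOS replicate 1 (311) or dnFOS replicate 2 (314).

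Signs turned for S100A10 with dnCEBP against EV with 1 library left out (a range of -0.027 to 0.089, lowest without EV replicate 2), and in dnFOS against EV after correction for GC content and gene length for S100A4 (0.004) and CALM2 (-0.019). Over the settings that kept all libraries, 199 of the members' fold changes kept their sign and side of the threshold, 9 gained a call, 5 lost it and 1 turned. With 1 library left out, 126 kept both, 4 gained a call, 13 lost it and 1 turned. The cause was not tested.

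The differences between replicate 1 and replicate 2 correlated across genes by 0.0174 (EV and dnCEBP), 0.0281 (EV and dnFOS) and 0.0879 (dnCEBP and dnFOS). These low values over all genes do not settle whether the replicate numbers pair the libraries, since some genes may still share a replicate difference. A replicate block gave 488, 3172 and 3013 called genes in the 3 comparisons, beside 165, 2309 and 2259 as reported. It gave 3 (ANXA1, S100A4 and S100A6), 5 and 8 called members.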

Other observations

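Other calcium-binding genes, a list of 22 that were all tested, moved in both directions in the same libraries. In dnFOS against EV 3 were called higher and 3 lower, beside 7.24% and 7.76% of all genes tested. In dnFOS against EV, GCA (grancalcin, of neutrophil granules) rose by 0.59 ± 0.12, RCN2 (a reticulocalbin of the endoplasmic reticulum) by 0.57 ± 0.12 and CALM2 (a calmodulin gene) by 0.27 ± 0.09, and CAPN1 (a calpain), CALR (calreticulin) and NUCB1 (a nucleobindin) had log2 fold changes of -0.35 ± 0.10, -0.27 ± 0.08 and -0.37 ± 0.11 (SE; edgeR adjusted p from 0.0013 for GCA to 0.0378 for CALM2). GCA stood at 26.3 and 27.1 CPM with EV, 23.3 and 24.2 with dnCEBP and 36.8 and 43.7 with dnFOS. GCA and RCN2 kept their calls in dnFOS under every setting with all libraries, and RCN2 lost its call without dnFOS replicate 2 (0.36). The calls of CAPN1, CALR and NUCB1 were lost with library totals (-0.25, -0.17 and -0.27), after correction for GC content and gene length (-0.14, -0.16 and -0.15) and without EV replicate 1 (-0.30, -0.25 and -0.32) or dnFOS replicate 2 (-0.23, -0.27 and -0.25), CALR also without EV replicate 2 (-0.30) or dnFOS replicate 1 (-0.26). CALM2 lost its call without EV replicate 2 (0.13), dnFOS replicate 1 (0.27) or dnFOS replicate 2 (0.28).

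In dnCEBP 1 of the 22 was called (1.07% of all genes tested). This was CALR, which fell by 0.37 on the log2 scale (SE 0.08, adjusted p of edgeR = 0.0153) from 2128 and 2076 CPM to 1578 and 1665, a call lost without either EV or either dnCEBP library (log2 fold changes from -0.41 to -0.34). Between the peptides GCA, CAPN2 and RCN2 were higher in dnFOS (0.76, 0.38 and 0.40 on the log2 scale) and CAPN1 was lower (-0.29). These were 3 and 1 of the 22, beside 6.83% higher and 7.84% lower among all genes tested. The call of GCA stood in every fit, and that of CAPN2 was lost with DESeq2 (0.37) and without dnCEBP replicate 2 (0.28), dnFOS replicate 1 (0.39) or dnFOS replicate 2 (0.37). RCN2 lost its call with DESeq2 (0.39) and without dnCEBP replicate 1 (0.34), dnCEBP replicate 2 (0.45) or dnFOS replicate 2 (0.19). CAPN1 lost its call with library totals (-0.17), limma-voom (-0.29), DESeq2 (-0.30) and without any library except dnFOS replicate 1 (-0.35 to -0.17). The medians of the 22 genes were -0.05, 0.03 and 0.07 with dnCEBP against EV, dnFOS against EV and dnFOS against dnCEBP.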
